A study of Mus musculus with 8 samples.

Results

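Transcript levels of the inner cell mass of diapaused mouse blastocysts were set against those of the inner cell mass at embryonic day 3.5, in 3 libraries of each. The inner cell mass (ICM) is the group of cells inside the blastocyst that gives rise to the epiblast, the precursor of the fetus, and to the primitive endoderm, an extraembryonic layer. A gene entered the comparison where 2 or more of these 6 libraries had it at 1 or above, which left 16636 of the 38924 genes in the file. The series holds 8 libraries, and the other 2, from post-implantation epiblast, were not used.

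All embryos came from C57BL/6 females that had been superovulated, per the labels' protocols, and each library was made from a pool of about 50 embryos. The ICM group was taken at day 3.5 with no treatment named. For the diapaused ICM group, tamoxifen and 0.5 mg of Depo Provera were given on day 3.5 and blastocysts were flushed from the uterus 5 days later. In both groups the trophectoderm, the outer layer, was lysed with antibody and complement, and the RNA was amplified by a kit for very small inputs. The labels describe removal of the zona pellucida for day 3.5 embryos and do not give that step separately for diapaused ones. Arrest, developmental age and the 2 drugs differ together between the groups and cannot be told apart here. The libraries of a group are labelled biological triplicates.

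Embryonic diapause is a reversible arrest in which the blastocyst stays unattached in the uterus. It is brought about in mice by blocking ovarian estrogen while progestin action is kept, and it is known for slow cell division, low protein synthesis and low mTOR activity, with pluripotency maintained. Growth in such cells is set by nutrient supply and growth factor signals, which meet at the kinase mTOR and act on ribosomes, protein turnover, lipid synthesis and the cell cycle. The results are ordered along these processes, then by the extracellular matrix, the neighbouring cell types and the signalling pathways.

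Values are adjusted TPM as the authors' column names call them. TPM is a transcript abundance scaled for transcript length and library total, so genes can be compared within a library, but these columns did not sum to a common total. Fold changes are differences of mean log2(value + 1), diapaused ICM minus ICM, given ± SE, and they understate the change of genes with low values. A gene was called higher or lower where limma's moderated test gave an adjusted p under 0.05 (Benjamini-Hochberg adjustment over the 16636 genes, 3 against 3 libraries). Counts are not kept in such values, so the depth is unknown and no counting interval is given. Shares of a list are over its tested members. Some members passed the filter on low values only through the group where they are higher.

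The libraries were alike in breadth: each had 14634 to 15130 genes at 1 or more. Column totals ran from 720674 to 1179026. Mitochondrially encoded transcripts held 8.45% to 11.7% of the total in ICM and 5.68% to 7.91% in diapaused ICM. The 100 most abundant genes held 33.4% to 42.0% in ICM against 38.3% to 47.5% in diapaused ICM. The epiblast and primitive endoderm marker sets were detected in all 6 libraries, with Nanog at 102 to 244 and Pou5f1 at 100.5 to 135. Sox2, a further defining gene of the epiblast lineage, was low in both groups, at 0.998 to 3.60.

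In diapaused ICM 1118 genes were higher and 860 were lower, which is 6.72% and 5.17% of the genes tested, or 11.9% together. The 3 libraries of each group did not overlap for any of these 1978 genes. A change of at least 2-fold was seen in 1003 of the higher and 740 of the lower genes, and one of at least 8-fold in 74 and 57. Over all genes, the lowest diapaused library was above the highest ICM library for 16.8% and the highest diapaused library below the lowest ICM library for 15%. Calls were unevenly spread over the range of levels. Among genes with a mean level of 50 to 200, 7% were higher and 13.3% lower, while among the 781 genes above 200, 15.1% were higher and 4.87% lower.

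**Figure D1:**
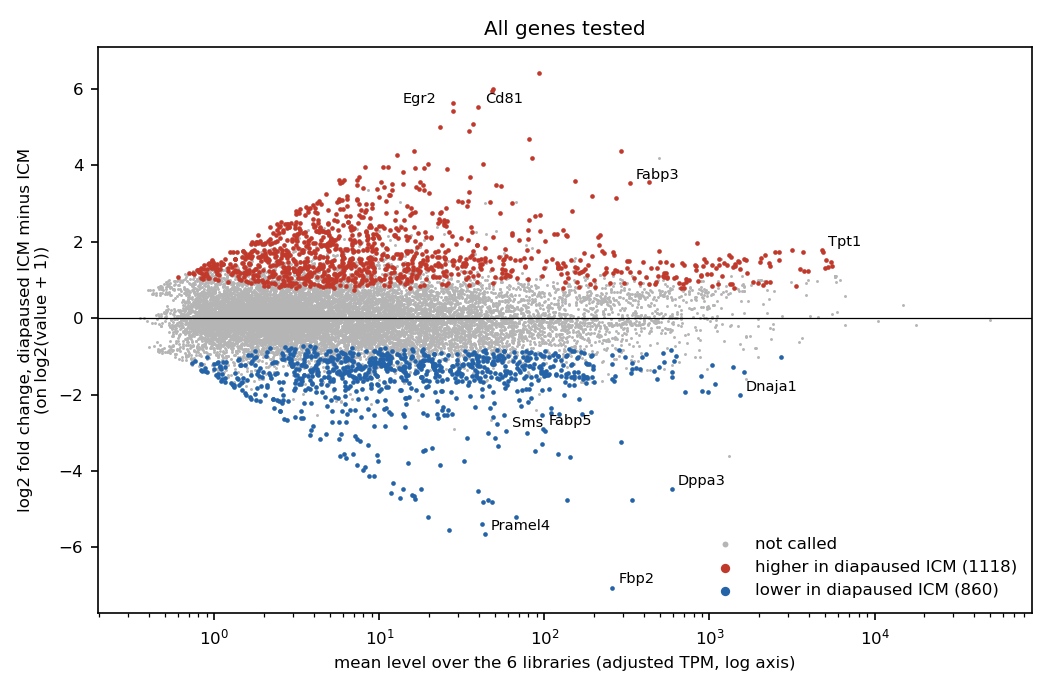
Each point is a gene, placed by its mean level over the 6 libraries (adjusted TPM, log axis) and its log2 fold change, with the 1118 higher genes in red, the 860 lower genes in blue and the rest in grey. Above a mean of 200 red points prevail, and between 50 and 200 blue points do.

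With libraries rescaled to a common total, 766 genes were higher and 1260 lower, so that 37.8% of calls in place of 56.5% were higher, and the median of all genes moved from -0.002 to -0.215. None of the 230 genes that the naming rule picked, most of them for a call in these data, turned direction with a call under any scaling tried. The counts depended on which library was left out: 557 were higher and 414 lower without ICM replicate 1, 652 and 403 without ICM replicate 3, and 765 and 457 without diapaused ICM replicate 2. Without diapaused ICM replicate 1 there were 519 lower genes, without diapaused ICM replicate 3 there were 571, and without ICM replicate 2 there were 903.

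The list with the most lower members was the proteasome, the protease complex that degrades ubiquitin-tagged proteins. Of 41 tested genes for its subunits and assembly factors 20 fell (48.8%, against 5.17% of all genes) and 0 rose, and the median log2 fold change was -0.90, against -0.002 for all genes. The falls ran through the whole particle. In the alpha ring, the outer gate of the core, 5 of 7 genes fell, and in the beta ring, which holds the proteolytic sites, 4 of 8 did. Of the ATPases that unfold substrates 4 of 6 fell, as did 6 of the 14 other genes of the regulatory particle and 1 of 3 for assembly. None of the 3 activator genes was called.

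Psmb6, for a catalytic subunit of the beta ring, stood at 128, 132 and 167 in the ICM libraries and at 55.6, 49.4 and 53.4 in the diapaused ones (-1.41 ± 0.22, adjusted p = 0.00713). The highest diapaused library was thus well below the lowest ICM library. Psmd1, for a large scaffold of the regulatory particle, went from 168, 117 and 160 to 40.3, 60.2 and 56.5 (-1.49 ± 0.26). The alpha ring genes Psma4 (83.2, 72.7 and 103 against 37.5, 28.4 and 28) and Psma6 (119, 133 and 155 against 58.4, 49.0 and 56.2) fell by 1.43 and 1.29 on the log2 scale. Psmb4, for another beta ring subunit, fell from 1449 ± 307 to 621 ± 145 (SD, n = 3 each). Groups lay apart, with diapaused ICM below, for 30 of the 41 genes, while 15% of all genes did so. The summed level of the list was 5965 to 7133 in ICM against 3039 to 3506 in diapaused ICM. The number called was 6 without ICM replicate 1 and also without ICM replicate 3, 8 without diapaused ICM replicate 2, 9 without diapaused ICM replicate 1 and 11 without diapaused ICM replicate 3.

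Cytosolic chaperones, which fold new and damaged proteins, moved the same way. Of 38 genes 7 fell (18.4%) and 2 rose, and the median was -0.66. Dnaja1, a J-domain partner of HSP70, had 3348, 1802 and 2211 in ICM and 639, 476 and 652 in diapaused ICM (-2.02 ± 0.27, adjusted p = 0.00357), so no diapaused library reached the level of any ICM library. Hspa8, the constitutive HSP70, fell from 3666 ± 952 to 1768 ± 23.5 (adjusted p = 0.022). Its call was kept in 1 of the 6 fits that left out a library. Stip1, which links HSP70 to HSP90, fell from 258 ± 39.9 to 83.8 ± 3.99, and the HSP90 cofactor Fkbp4 from 218 ± 26.1 to 81.9 ± 16.2. The small heat shock gene Hspb1 rose, from 3.49, 4.94 and 7.67 to 49.9, 30.9 and 43.0 (2.76 ± 0.31). The other gene that rose was Dnajb4, named after its values were seen. The list's summed level was 11560 to 15540 in ICM against 6662 to 7354 in diapaused ICM. Lower chaperones numbered 3 without ICM replicate 1 or 3 or diapaused ICM replicate 1 or 2, and 10 without ICM replicate 2. They numbered 13 under a common total and 11 after quantile normalization.

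**Figure D2:**
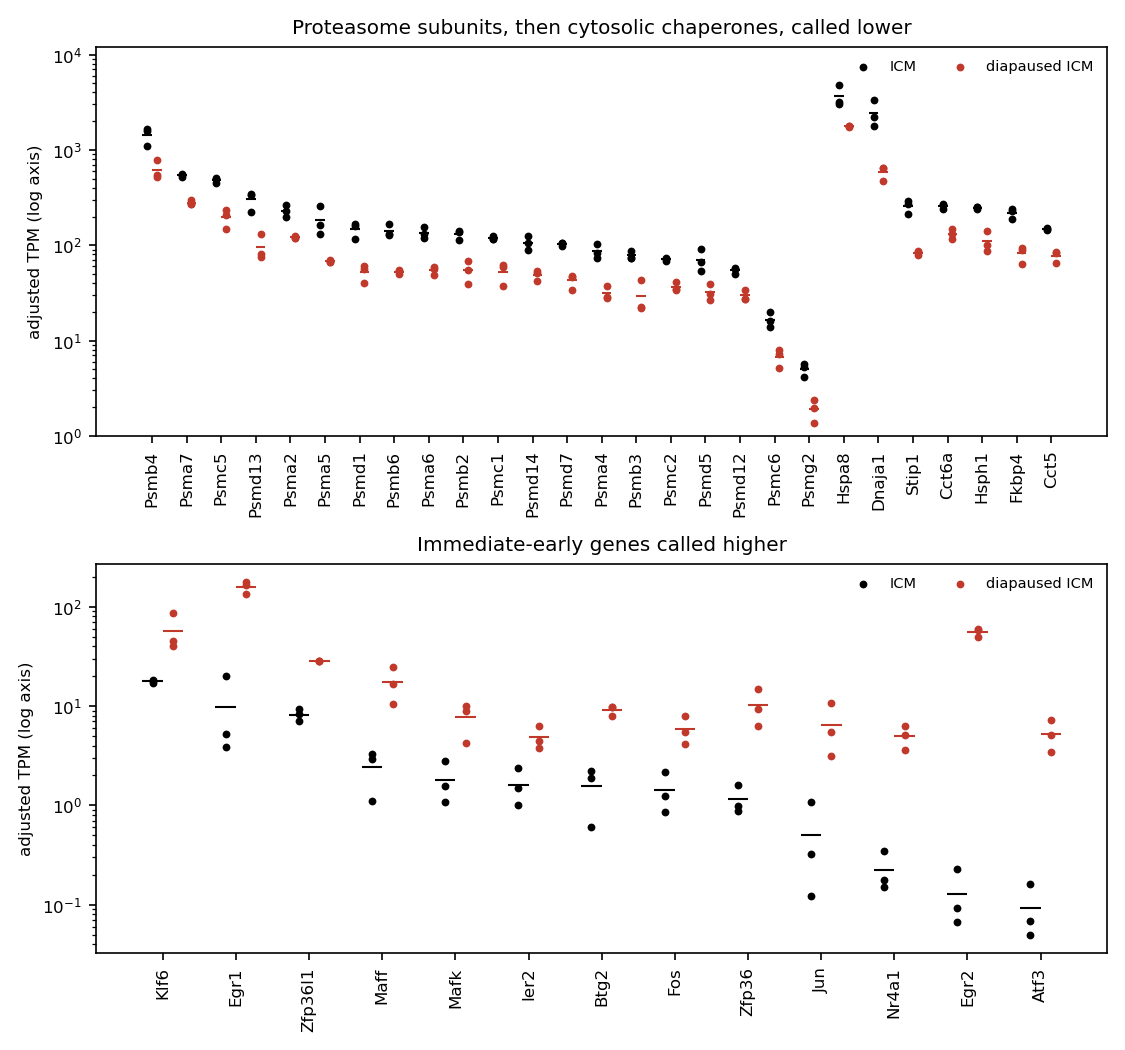
Levels of the proteasome and chaperone genes called lower (upper panel) and of the called immediate-early genes (lower panel), with a point per library, short lines for group means and a log axis in adjusted TPM. Red points of diapaused ICM lie below the black points of ICM for every gene of the upper panel, such as Psmb6 at 49.4 to 55.6 against 128 to 167, and above them in the lower panel, such as Egr2 at 49.4 to 59.0 against 0.0668 to 0.229.

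Among the largest gains in absolute level were genes tied to translation. Tpt1, for an abundant protein whose mRNA is a known target of growth-dependent translation control, was at 2104, 2084 and 2220 in ICM and 8027, 8032 and 6287 in diapaused ICM (1.79 ± 0.17, adjusted p = 0.000879). Gas5, a host gene of small nucleolar RNAs first found in growth-arrested cells, rose from 2171, 2498 and 1937 to 8949, 8175 and 5398 (1.74 ± 0.23). Rpl23 rose from 2660 ± 955 to 7479 ± 2345, and its call was lost without 2 of the libraries taken singly. For each of these genes the groups were apart. The pseudogenes Tpt1-ps3 and Tpt1-ps5 were also among the 6 largest gains. They copy Tpt1, and since the handling of shared reads is not given, the split of reads among the 3 is uncertain.

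Of 79 genes for cytosolic ribosomal proteins 21 rose (26.6%, against 6.72% of all genes) and 0 fell, with a median of 0.73 and a positive difference in 75. Among the examples, Rps4x went from 751, 723 and 836 to 2050, 2313 and 1886 (1.43 ± 0.19, adjusted p = 0.00314) and Rps21 from 813 ± 122 to 2419 ± 646. In 53 of the 79 the groups were apart with diapaused ICM above (16.8% of all genes). The summed level was 41480 to 54910 in ICM against 71030 to 103600 in diapaused ICM, where replicate 3 was the lowest. Called members numbered 14 without diapaused ICM replicate 3, 12 without ICM replicate 2, 9 without ICM replicate 3, 7 without diapaused ICM replicate 1, 6 without ICM replicate 1 and 4 without diapaused ICM replicate 2. After scaling to a common total 12 rose and 1 fell.

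The ribosomes of mitochondria, which make the few proteins encoded there, did not follow. Of 72 genes for their proteins 11 fell (15.3%) and 1 rose, with a median of -0.45. Mrps25 fell from 21.0, 24.0 and 29.8 to 5.70, 5.87 and 7.42 (-1.82 ± 0.23, adjusted p = 0.00285), with a wide gap between the groups. Mrpl23, the gene that rose, went from 15.5 ± 5.51 to 40.7 ± 4.76. Without ICM replicate 3 only 1 gene of this list was lower, and without ICM replicate 1, diapaused ICM replicate 1, 2 or 3 there were 3, 6, 2 and 4. Of 53 splicing genes 5 were lower (9.43%, against 5.17% of all genes) and 0 higher, with a median of -0.46. Of 44 nuclear pore and transport genes 6 were lower (13.6%) and 0 higher, with a median of -0.31. Under a common total 12 splicing and 11 nuclear transport genes were lower. Kpnb1, the importin that carries most cargo into the nucleus, fell from 113 ± 15.1 to 47.6 ± 11.1. The nuclear transport count was 0 without ICM replicate 1 or 3, 1 without diapaused ICM replicate 1 or 2 and 3 without diapaused ICM replicate 3. The splicing count was 2 without ICM replicate 1 or 3, 1 without diapaused ICM replicate 2 and 3 without diapaused ICM replicate 3.

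**Figure D3:**
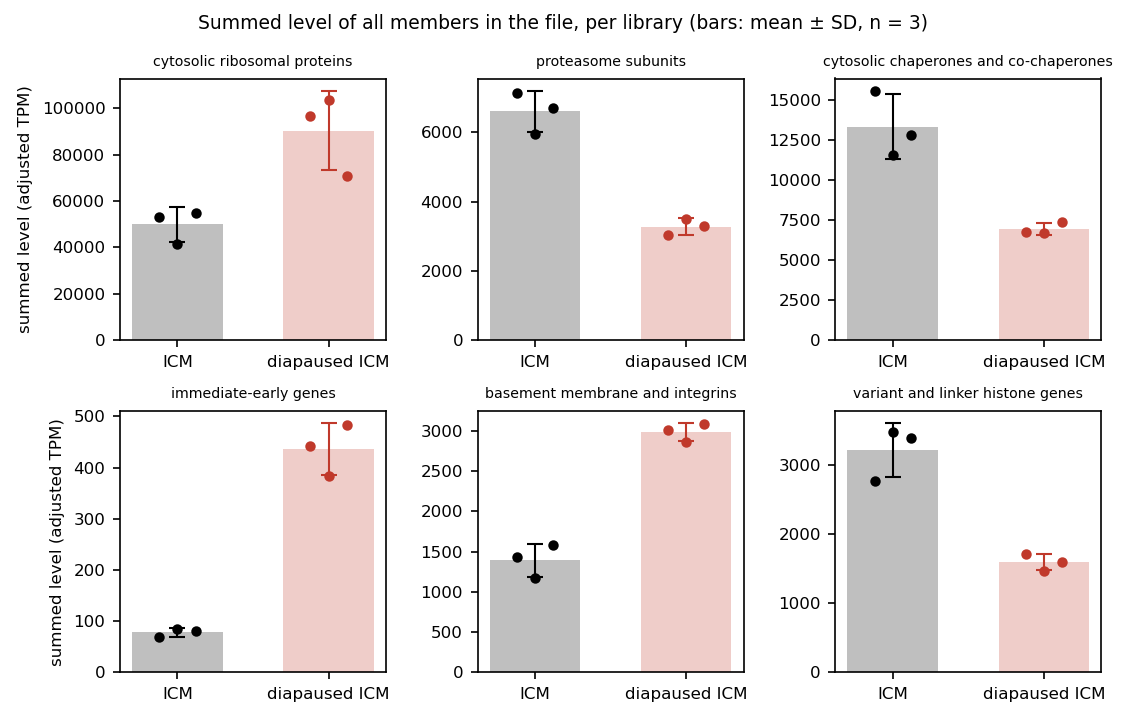
Summed level of all members in the file for 6 gene lists (adjusted TPM, axes from 0), with points for libraries and bars for mean ± SD (n = 3). The sums of ribosomal protein, immediate-early and basement membrane genes are higher in every diapaused library, and those of proteasome, chaperone and histone genes are lower in every diapaused library.

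Immediate-early genes encode transcription factors and RNA-binding proteins that cells switch on within minutes of a growth factor or stress signal, without new protein synthesis. Many are driven through CArG boxes, the sites of serum response factor. Of 26 such genes 21 were tested, and 13 rose (61.9%, against 6.72% of all genes) and 0 fell, with a median of 1.56. Of the 13, Egr2, Atf3, Jun, Nr4a1 and Zfp36 passed the filter on low values through the diapaused libraries alone, so the share is not that of all 26. Egr2 was at 0.229, 0.0919 and 0.0668 in ICM and at 57.8, 59.0 and 49.4 in diapaused ICM (5.64 ± 0.20, adjusted p = 4.62e-05), so a gene close to undetected in every ICM library was well expressed in every diapaused one. Egr1 had 3.87, 20.1 and 5.28 in ICM and 179, 134 and 165 in diapaused ICM (4.20 ± 0.51). ICM replicate 2 was the highest of its group for Egr1 and was still far below the diapaused libraries.

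At lower levels, Atf3, a stress-induced repressor, rose from 0.162, 0.0681 and 0.0495 to 3.43, 5.16 and 7.21, and the orphan nuclear receptor gene Nr4a1 from 0.15, 0.176 and 0.345 to 3.61, 5.12 and 6.23. Fos, the partner of Jun in the AP-1 dimer, rose from 1.42 ± 0.675 to 5.86 ± 1.94 (adjusted p = 0.0166). Jun, named after its values were seen, rose from 0.507 ± 0.503 to 6.42 ± 3.86. Myc, also on this list, stood at 9.33, 7.3 and 13 against 28.6, 20.6 and 11.2, and its groups overlapped (0.90 ± 0.36, adjusted p = 0.159). The summed level of the list was 68.9 to 84.4 in ICM against 383 to 483 in diapaused ICM. Called members numbered 8 without ICM replicate 1, and 10 to 12 without any other single library.

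CArG boxes were looked for on both strands in RefSeq promoter windows of build GRCm38.p6, which run from 250 bases before to 50 after a start site. Of the 16580 symbols tested 7707 had such a window. A CArG box was in 3 of the 16 immediate-early genes with a window (18.8%) and in 1.70% of all 7707 genes. The share with the box was much the same in members called, 2 of 11 (18.2%), and in members not called, 1 of 5 (20%). The place of the box in a pair of called genes, Egr2 and the mRNA decay gene Zfp36, picked after their values were seen because the box lies upstream, is shown in capitals in the 120 bases before the start site, 5′ to 3′, for Egr2 at chr10:67537446-67537565 (plus strand) and Zfp36 at chr7:28379229-28379348 (minus strand).
Egr2: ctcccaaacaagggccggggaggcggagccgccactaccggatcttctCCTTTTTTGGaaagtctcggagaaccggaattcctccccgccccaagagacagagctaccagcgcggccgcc
Zfp36: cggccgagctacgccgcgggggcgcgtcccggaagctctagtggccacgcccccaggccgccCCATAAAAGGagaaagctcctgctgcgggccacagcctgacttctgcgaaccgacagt

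Zfp36 itself was at 0.868, 0.984 and 1.59 in ICM and 9.27, 6.29 and 14.8 in diapaused ICM (2.32 ± 0.31, adjusted p = 0.00342). Every diapaused library was above every ICM library. A match describes these letters and says nothing of whether the site was in use.

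ATF4 is the transcription factor that amino acid shortage and endoplasmic reticulum stress activate. Of 28 genes of ATF4 and the wider unfolded protein response 26 were tested. Of these 8 rose (30.8%, against 6.72% of all genes) and 0 fell, with a median of 0.66. Atf3, among those that rose, passed the filter on low values through the diapaused libraries alone, so the share is not that of all 28. Atf4 itself, the stress sensor genes Eif2ak3, Ern1 and Atf6, the factor gene Xbp1 and the chaperone gene Hspa5 were not called. Asns, which makes asparagine, was at 34.3, 35.0 and 49.1 in ICM and 181, 155 and 147 in diapaused ICM (2.01 ± 0.24, adjusted p = 0.00231). Atf5, a related transcription factor gene, rose from 10.7, 3.35 and 9.33 to 115, 58.2 and 107 (3.49 ± 0.43). Ddit3, for a factor linked to prolonged stress, rose from 10.8 ± 4.17 to 60.8 ± 19.7. Groups did not overlap for any of these genes. Among enzymes of glutamine, glutamate and asparagine use 4 of 17 rose (23.5%) and 0 fell: Asns, Oat (1.05 to 2.12 against 6.82 to 16.2), Gpt2 and Gfpt1. This count was 2 without ICM replicate 1 and under a common total, and the call of Gfpt1 was lost in each of the 6 fits that left out a library. The number of the 26 genes called was 5 to 7 in fits without 1 library, with 5 without diapaused ICM replicate 3.

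Sterol synthesis genes are switched on by SREBP2 when membrane cholesterol is low. Of 28 such genes 27 were tested, and 13 rose (48.1%, against 6.72% of all genes) and 0 fell, with a median of 1.08. Stard4, among those that rose, passed the filter on low values through the diapaused libraries alone, so the share is not that of all 28. Stard4, a carrier that moves cholesterol between membranes, was at 0.284, 0.339 and 0.801 in ICM and 51.0, 22.6 and 21.8 in diapaused ICM (4.38 ± 0.35, adjusted p = 0.000371). Fdft1, the squalene synthase gene, rose from 7.67, 5.61 and 4.01 to 59.7, 52.5 and 50.5, and the demethylase gene Cyp51 from 3.34, 2.89 and 3.87 to 26.1, 25.9 and 36.3. Each of these genes was several times higher in every diapaused library. Srebf2, which encodes SREBP2 itself, went from 2.89 ± 0.266 to 16.7 ± 4.83. The paralog Srebf1, named after its values were seen, did not pass (-0.06). Fits without 1 library called 10 to 14 of the 27.

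The core of the sterol regulatory element, TCACNCCAC on either strand, was in the window of 1 of 19 sterol genes (5.26%) and of 1.44% of all genes with a window. The match was in Hmgcs1, which makes the precursor of mevalonate and rose from 7.84, 7.12 and 5.08 to 24.7, 30.2 and 30.2 (1.95 ± 0.24). Its 150 upstream bases at chr13:119690201-119690350 (plus strand) are shown with the element in capitals; Hmgcs1 is named for that match.
Hmgcs1: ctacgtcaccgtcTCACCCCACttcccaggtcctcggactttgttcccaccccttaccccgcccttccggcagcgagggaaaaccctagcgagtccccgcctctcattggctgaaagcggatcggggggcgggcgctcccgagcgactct

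Fatty acid genes were divided between rises and falls. Of 26 genes of fatty acid synthesis and lipid storage 5 rose (19.2%) and 2 fell (7.69%), against 6.72% and 5.17% of all genes. Without ICM replicate 1, 2 rose. The fatty acid-binding protein genes Fabp3 and Fabp5 went opposite ways. Fabp3 had 60, 29.8 and 74.2 in ICM and 544, 664 and 602 in diapaused ICM (3.53 ± 0.34, adjusted p = 0.000898). Fabp5 had 205, 108 and 207 in ICM and 23.9, 23.6 and 17.4 in diapaused ICM (-2.90 ± 0.32, adjusted p = 0.00151). In ICM Fabp5 was thus the higher of the pair in every library, and in diapaused ICM Fabp3 was. Whether reads of Fabp3 were shared with its pseudogene copy Fabp3-ps1, named after its values were seen and also called higher, could not be checked. Plin2, which coats lipid droplets, fell from 129, 103 and 125 to 29.1, 14.7 and 29.5 (-2.30 ± 0.31). Fads1, a desaturase of long fatty acids, rose from 2.25 ± 0.397 to 10.4 ± 0.659.

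Purine and pyrimidine genes fell in 8 of 32 cases (25%, against 5.17% of all genes) and rose in 2 (6.25%, against 6.72%). Prps1, which makes the activated ribose for all nucleotides, fell from 102, 74.8 and 97.5 to 31.7, 28.1 and 20.8 (-1.74 ± 0.26). Hprt, of purine salvage, fell from 27.3, 27.0 and 36.9 to 6.75, 7.96 and 9.04, and Rrm2, the regulated subunit of the enzyme that makes deoxynucleotides, from 31.6, 41.4 and 37.9 to 9.59, 11.5 and 12.4. The groups were apart for each of the 3 genes. Nme1, a nucleoside diphosphate kinase gene, fell from 168 ± 45.8 to 45.3 ± 8. The genes that rose were Paics and Aprt, named after their values were seen. Fits without ICM replicate 1 or 3, or diapaused ICM replicate 2, called 5 lower genes.

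Enzymes of serine, folate, methionine and polyamine use were lower in 5 of 32 cases (15.6%) and higher in 2 (6.25%). The shares of all genes were 5.17% and 6.72%. Bhmt, among those that fell, passed the filter on low values through the ICM libraries alone. The lower genes numbered 3 without ICM replicate 1 or 3 or diapaused ICM replicate 1, and 1 gene was higher without any single library but diapaused ICM replicate 1. Sms, which makes spermine, had 111, 86.1 and 115 in ICM and 15.1, 10.3 and 11.9 in diapaused ICM (-2.96 ± 0.25, adjusted p = 0.000425). Sat1, which acetylates polyamines for breakdown, fell from 243, 297 and 250 to 65.5, 62.0 and 53.8. Both a synthetic and a catabolic gene were therefore lower in every diapaused library. Odc1, of the first step of polyamine synthesis and named after its values were seen, stood at 335 to 408 in ICM against 355 to 413 in diapaused ICM (0.01 ± 0.20). Bhmt, which remethylates homocysteine, fell from 6.71, 22.2 and 12.4 to 0.0249, 0.354 and 0.0781. Mthfd1l, a mitochondrial folate enzyme gene, rose from 2.36 ± 0.356 to 14.4 ± 3.62.

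Glutathione and redox genes were mixed, with 4 of 37 higher (10.8%) and 5 lower (13.5%), against 6.72% and 5.17% of all genes. Gstm2 passed the filter on low values through the diapaused libraries alone, and Gss through the ICM libraries alone. Gss, for glutathione synthetase, fell from 10.8, 14.4 and 16.1 to 0.15, 0.332 and 1.88 (-3.15 ± 0.36, adjusted p = 0.00182). Among the transferases that conjugate glutathione, Gstp1 fell from 68.3 ± 7.43 to 15.9 ± 2.37 while Gstm1 rose from 7.03 ± 2.27 to 42.5 ± 9.11 and Gstm2 from 0.469, 0.784 and 1.21 to 11.7, 4.78 and 8.33. The groups did not overlap for any of these 3 transferase genes. Gstm5, Gsta4, Gstt2 and Mgst3 were not called, and Gsto1 fell. Without diapaused ICM replicate 1, 2 genes of the list were higher.

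Genes for G2 phase, mitosis and the kinetochore were lower in 17 of 51 cases (33.3%) and higher in 1, Zwint, named after its values were seen. The median was -0.76. Pttg1, the securin gene, whose product blocks separase until anaphase, had 148, 112 and 132 in ICM and 36.9, 29.1 and 19.5 in diapaused ICM (-2.19 ± 0.29, adjusted p = 0.00311). Spc24, of the outer kinetochore, fell from 11.4, 13 and 13.2 to 3.46, 3.46 and 4.02. Birc5, of the complex that corrects chromosome attachment, fell from 90.3 ± 7.73 to 25.8 ± 9.04, and the chromokinesin gene Kif4 from 7.92 ± 1.54 to 1.73 ± 0.900. Mki67, the proliferation marker, had overlapping groups at 10.5, 8.88 and 17.2 against 7.75, 6.43 and 12.2 (-0.42 ± 0.32, adjusted p = 0.457). The count of lower genes was 6 without ICM replicate 3, 7 without ICM replicate 1, 8 without diapaused ICM replicate 2, 9 without diapaused ICM replicate 1, 11 without ICM replicate 2 and 12 without diapaused ICM replicate 3.

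Promoters of this class of gene are known for CCAAT boxes, bound by NF-Y, and for the cell cycle homology element (CHR), searched here as TTTGAA. On either strand, CCAAT was in 31 of the 42 genes of the list with a window (73.8%) and in 43.8% of all genes with a window. TTTGAA was in 25 of the 42 (59.5%) and in 14.4% of all. The share with TTTGAA was much the same in members called, 10 of 16 (62.5%), and in members not called, 15 of 26 (57.7%). The following 120-base stretches before the start site show both motifs in capitals, on either strand, for 5 called genes picked after their values were seen for matches upstream. They lie at chr13:100786487-100786606 (minus, Ccnb1), chr9:70421555-70421674 (minus, Ccnb2), chr2:172370571-172370690 (minus, Aurka), chr4:118437344-118437463 (minus, Cdc20) and chr19:37376262-37376381 (plus, Kif11).
Ccnb1: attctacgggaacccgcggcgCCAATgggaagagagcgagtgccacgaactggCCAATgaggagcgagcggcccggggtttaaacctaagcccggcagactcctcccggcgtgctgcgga
Ccnb2: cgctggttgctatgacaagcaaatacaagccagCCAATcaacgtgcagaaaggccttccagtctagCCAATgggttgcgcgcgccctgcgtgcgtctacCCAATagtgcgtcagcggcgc
Aurka: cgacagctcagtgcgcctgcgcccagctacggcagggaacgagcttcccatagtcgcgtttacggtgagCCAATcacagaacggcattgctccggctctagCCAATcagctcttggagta
Cdc20: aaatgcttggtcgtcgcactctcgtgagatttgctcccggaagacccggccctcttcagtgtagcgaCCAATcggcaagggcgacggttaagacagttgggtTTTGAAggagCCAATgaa
Kif11: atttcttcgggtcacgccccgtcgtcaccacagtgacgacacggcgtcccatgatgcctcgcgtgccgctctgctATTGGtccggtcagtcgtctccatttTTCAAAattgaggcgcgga

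These stretches hold 2, 3, 2, 2 and 1 CCAAT boxes in that order, and TTTGAA only in Cdc20 and Kif11. Ccnb2 has a TTTGAA at -167 from the start, outside the stretch shown. Cdc20, the activator of the anaphase-promoting complex, was at 26.3, 23.1 and 14.5 in ICM and 1.99, 6.40 and 8.06 in diapaused ICM (-1.89 ± 0.43). Ccnb1, for the mitotic cyclin B1, fell from 48.8, 56.4 and 54.0 to 18.7, 30.2 and 31.5 (-0.99 ± 0.26, adjusted p = 0.048), a call lost in each of the 6 fits that left out a library. The E-box CACGTG was in 9 of 24 lysosome genes with a window (37.5%) and 12.4% of all, with 2 of 7 called members (28.6%) and 7 of 17 not called (41.2%) holding it. The C/EBP-ATF element TGATGNAAT was in 1 of 24 genes of the list that holds Atf4 and the unfolded protein response (4.17%) and 0.61% of all. TGACNNNGC, an antioxidant response element searched for in proteasome genes after their values were seen, was in 5 of 34 (14.7%) and in 16.8% of all.

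Histone and linker histone genes fell in 8 of 19 cases (42.1%) and rose in 3. H2afz, for the variant histone H2A.Z, fell from 1581, 2281 and 1970 to 1056, 619 and 766 (-1.27 ± 0.26). The linker histone genes that are tied to DNA replication were lower, Hist1h1a going from 10.6 ± 2.80 to 0.740 ± 0.229 and Hist1h1e from 5.75, 5.31 and 7.55 to 1.51, 1.42 and 1.13. H1f0, the linker histone of resting and differentiated cells, rose from 1.58, 2.53 and 2.16 to 6.97, 7.09 and 8.59 (1.48 ± 0.21). H2afy2, for a macroH2A variant, rose from 1.28 ± 0.323 to 15.3 ± 3.63. The lower and the higher linker histones had groups that were fully apart. Hist1h1a passed the filter on low values through the ICM libraries alone. Fits without ICM replicate 3 or diapaused ICM replicate 2 called 4 lower genes, and those without diapaused ICM replicate 1 or 3 called 5.

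Of 52 genes of DNA damage response and repair 7 fell (13.5%, against 5.17% of all genes) and 1 rose (1.92%, against 6.72%). Brca1, of homologous recombination, fell from 9.22, 10.1 and 10.9 to 2.35, 2.69 and 3.89 (-1.49 ± 0.22), and the checkpoint kinase gene Chek1 from 11.7, 7.68 and 7.09 to 2.25, 2.52 and 3.12. Msh3, of mismatch repair, was the gene that rose (1.45 ± 0.26). The repair count was 3 without ICM replicate 1 or diapaused ICM replicate 1, 2 without ICM replicate 3 and 4 without diapaused ICM replicate 3. Among G1 regulators 5 of 31 rose (16.1%) and 1 fell (3.23%). Ccnd2, among those that rose, passed the filter on low values through the diapaused libraries alone. The higher genes numbered 2 without ICM replicate 3, and 3 under a common total and without ICM replicate 1 or any single diapaused library. Ccnd2, for cyclin D2, rose from 0.115, 0.198 and 0.124 to 4.15, 3.70 and 5.28, and the antiproliferative gene Btg2 from 0.602 to 2.21 in ICM to 7.97 to 9.76 in diapaused ICM. The inhibitor genes Cdkn1a (adjusted p = 0.126) and Cdkn1b (0.0908) did not pass, although the groups of each were apart.

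Of 45 genes of oocyte and cleavage-stage families in the file, 13 passed the filter on low values. Several passed through the ICM libraries alone and so had to differ, and no share or median of the list is given. Trim43a, of a tripartite motif family active around cleavage, was at 19.1, 22.8 and 28.8 in ICM and at 0.0129, 0.00144 and 0.0129 in diapaused ICM. Pramel5 fell from 25.4, 22 and 32.8 to 0.0271, 0.0709 and 0.038. Both were thus near undetected in every diapaused library. Outside this list, Dppa3, a maternal factor that guards DNA methylation and is also a naive pluripotency marker, was at 1051, 1361 and 987 in ICM and 45.9, 59.6 and 44.2 in diapaused ICM (-4.48 ± 0.24, adjusted p = 8.31e-05). Jarid2, a cofactor of Polycomb complex 2, fell from 194, 246 and 190 to 45.2, 63.8 and 46.3 (-2.01 ± 0.25). The groups of both were far apart. Of the 27 Polycomb genes only Jarid2 and Suz12 fell (7.41%, against 5.17% of all genes) and 0 rose. The catalytic gene Ezh2 was at 61.2, 41.9 and 66.9 against 21.2, 35.0 and 35.2 (adjusted p = 0.0999). Rhox5, an X-linked homeobox gene active in extraembryonic tissue, rose from 29.6, 21.1 and 28.1 to 555, 568 and 552 (4.37 ± 0.23), with close replicates in both groups.

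Primitive endoderm lines the cavity side of the ICM and lays down a basement membrane of laminin and type IV collagen. Of 26 marker genes 23 were tested, and 15 rose (65.2%, against 6.72% of all genes) and 1, Gata6, fell. Rspo3 and Lrp2, among those that rose, passed the filter on low values through the diapaused libraries alone, so the share is not that of all 26. In pools of embryos a larger share of primitive endoderm cells and more RNA per cell cannot be told apart. Dab2, an endocytic adaptor gene, had 14.2, 9.12 and 13.4 in ICM and 86.3, 72.0 and 186 in diapaused ICM (3.02 ± 0.38). Gata4 rose from 5.06 ± 0.384 to 10.4 ± 1.07, whereas Gata6, active earlier in the lineage, fell from 3.70, 3.33 and 5.30 to 1.42, 1.55 and 2.02 (-0.93 ± 0.23, adjusted p = 0.0394), and the call was kept in 1 of the 6 fits that left out a library for Gata4 and in 0 for Gata6. Sox17 had overlapping groups at 0.164 to 1.93 against 0.982 to 1.52. Of 7 defining markers 3 rose, Gata6 fell, and Sox17, Pdgfra and Foxa2 were not called. The summed level of the 7 was 52.8 to 54.6 in ICM against 135 to 254 in diapaused ICM, and most of that rise was Dab2. The 5 defining epiblast markers summed to 331 to 665 in ICM against 243 to 362 in diapaused ICM, with 0 called, and their part in the result was not tested. Between 8 and 11 markers rose in fits without 1 library, with 8 without ICM replicate 1.

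Of 28 basement membrane and integrin genes 10 rose (35.7%) and 1 fell, with a median of 0.64, and 7 of the 10 (70%) are also among the 15 endoderm markers that rose (46.7%). Lama1, for a laminin alpha chain, rose from 15.4, 11.1 and 22.0 to 63.8, 56.9 and 63.4 (1.91 ± 0.28). Hspg2, for the proteoglycan perlecan, rose from 1.35, 6.58 and 3.39 to 26.0, 30.4 and 27.1, and Lamb2, for a laminin beta chain, from 0.0985, 0.00755 and 0.142 to 3.25, 2.78 and 3.92. All 3 were higher in each diapaused library, and Hspg2 and Lamb2 are not on the endoderm list. All 28 genes of the list were tested, but Lamb2 passed the filter on low values through the diapaused libraries alone. Sparc, for a collagen-binding glycoprotein, rose from 474 ± 40.4 to 1392 ± 113. The gene that fell was Itga6, for a laminin receptor subunit and named after its values were seen, from 47.0, 49.5 and 48.2 to 18.0, 17.7 and 27.4. Ligands and this receptor subunit thus went opposite ways. The list's summed level was 1166 to 1575 in ICM against 2855 to 3077 in diapaused ICM. Without ICM replicate 1 6 genes were higher.

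Of 21 genes for tetraspanins, scaffold proteins of membrane domains, 14 were tested, and 4 rose (28.6%, against 6.72% of all genes) and 0 fell. Of the 4, Cd81 and Tspan6 passed the filter on low values through the diapaused libraries alone, so the share is not that of all 21. Cd81 was at 0.686, 0.734 and 0.628 in ICM and 81.9, 57.4 and 97.7 in diapaused ICM (5.54 ± 0.25, adjusted p = 5.41e-05). Tspan5 rose from 1.89 ± 0.0978 to 31.3 ± 8.59 and Tspan9 from 1.16 ± 0.346 to 14.4 ± 2.29. Cd9, a close relative of Cd81 named for that contrast after its values were seen, did not pass (-0.03). Of 37 genes of actin, tubulin and their small regulators 11 rose (29.7%) and 1 fell, with 9 to 11 rising in fits without 1 library. S100 genes, for small calcium-binding proteins, are on this list, and S100a1 passed the filter on low values through the diapaused libraries alone. S100a1 had 0.0763, 0.111 and 0.603 in ICM and 57.1, 31.1 and 79.0 in diapaused ICM, and the abundant S100a11 had 68.1, 81.7 and 84.1 against 291, 437 and 347 (2.17 ± 0.24). Both were higher in all diapaused libraries.

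Of junction and adhesion genes 2 of 23 rose (8.7%) and 2 fell (8.7%), near the 6.72% and 5.17% of all genes. Cdh3, among those that fell, passed the filter on low values through the ICM libraries alone. Gja1, for the gap junction protein connexin 43, fell from 104, 106 and 134 to 18.5, 24.5 and 34.9 (-2.13 ± 0.28), and Cdh3, for P-cadherin, from 3.3, 2.08 and 2.87 to 0.244, 0.0869 and 0.110. Pard3 and Pard6b, for polarity proteins, were the genes that rose (adjusted p = 0.0489 and 0.0452), and each call was kept in 1 of the 6 fits that left out a library.

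Of 36 lysosome genes 35 were tested, and 8 rose (22.9%, against 6.72% of all genes) and 4 fell (11.4%, against 5.17%). Ctsh, among those that rose, passed the filter on low values through the diapaused libraries alone, so the share is not that of all 36. Ctsh, a cathepsin gene, was at 0.264, 0.376 and 0.208 in ICM and 9.56, 31.1 and 21.8 in diapaused ICM (3.95 ± 0.38). Ctsl, another cathepsin, rose from 102 ± 26.7 to 344 ± 41.8, and the cholesterol exporter gene Npc2 from 6.86 ± 1.64 to 27.0 ± 2.14. Glb1, for beta-galactosidase, was among the genes that fell, from 24.8, 18.1 and 21.2 to 6.26, 7.72 and 7.54, and it was named after its values were seen. The lower genes numbered 1 without ICM replicate 1 and 2 without ICM replicate 3 or diapaused ICM replicate 1 or 2. Of 25 genes of endocytosis and apical receptors 23 were tested. Of these 6 rose (26.1%, against 6.72% of all genes) and 0 fell, although the list's median was -0.19. Lrp2, among those that rose, passed the filter on low values through the diapaused libraries alone, so the share is not that of all 25. Lrp2, for megalin, rose from 0.766, 0.760 and 1.63 to 8.03, 4.74 and 13.9, and its partner Cubn rose with it (1.32 ± 0.30). Both, and Dab2, are endoderm markers too. The count over this list was 3 without ICM replicate 1 or 3 or diapaused ICM replicate 3 and under a common total, and 4 without diapaused ICM replicate 2.

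Markers of other cells that the pools could hold were read beside these lists. Of 7 defining blood and immune markers 4 were under 1 in all 6 libraries, Cd68 rose from 3.89, 5.75 and 9.24 to 80.6, 29.6 and 25.3, and Laptm5 from 1.03, 1.12 and 0.743 to 53.2, 20.8 and 21.5. Both encode lysosomal membrane proteins. The summed level of the 7 was 5.52 to 10.1 in ICM against 47.8 to 134 in diapaused ICM, and the part of such cells in the lysosome result was not tested. Defining visceral endoderm markers summed to 1.62 to 5.51 over all libraries, with 3 of 5 under 1 throughout. A wider list of visceral and parietal endoderm products went the other way, with a summed level of 44.0 to 69.5 in ICM against 646 to 661 in diapaused ICM, most of it Rhox5. Of its 22 genes in the file 10 were tested, 6 rose (60%) and 1, Hnf4a, fell (10%), against 6.72% and 5.17% of all genes. Slc39a8, among those that rose, passed the filter on low values through the diapaused libraries alone, and Hnf4a through the ICM libraries alone. The shares are thus not those of all 22. Apoe, for a lipid carrier, rose from 16.8, 11.9 and 23.7 to 54.1, 55.2 and 57.4. Trophectoderm markers summed to 20.0 to 30.3 in ICM against 24.2 to 40 in diapaused ICM. Of the 4 tested only Gata3 was called, and it rose from 1.41, 0.531 and 2.43 to 9.20, 4.81 and 11.2. Its call was kept in 4 of the 6 fits that left out a library. On a wider trophectoderm list of 17 tested genes 1 rose (5.88%) and 3, Bmp4, Cdh3 and Gm2a, fell (17.6%). Cdh3 passed the filter on low values through the ICM libraries alone. Uterine markers were under 1 in all libraries for 6 of 7 genes, and all 5 granulosa markers were.

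**Figure D4:**
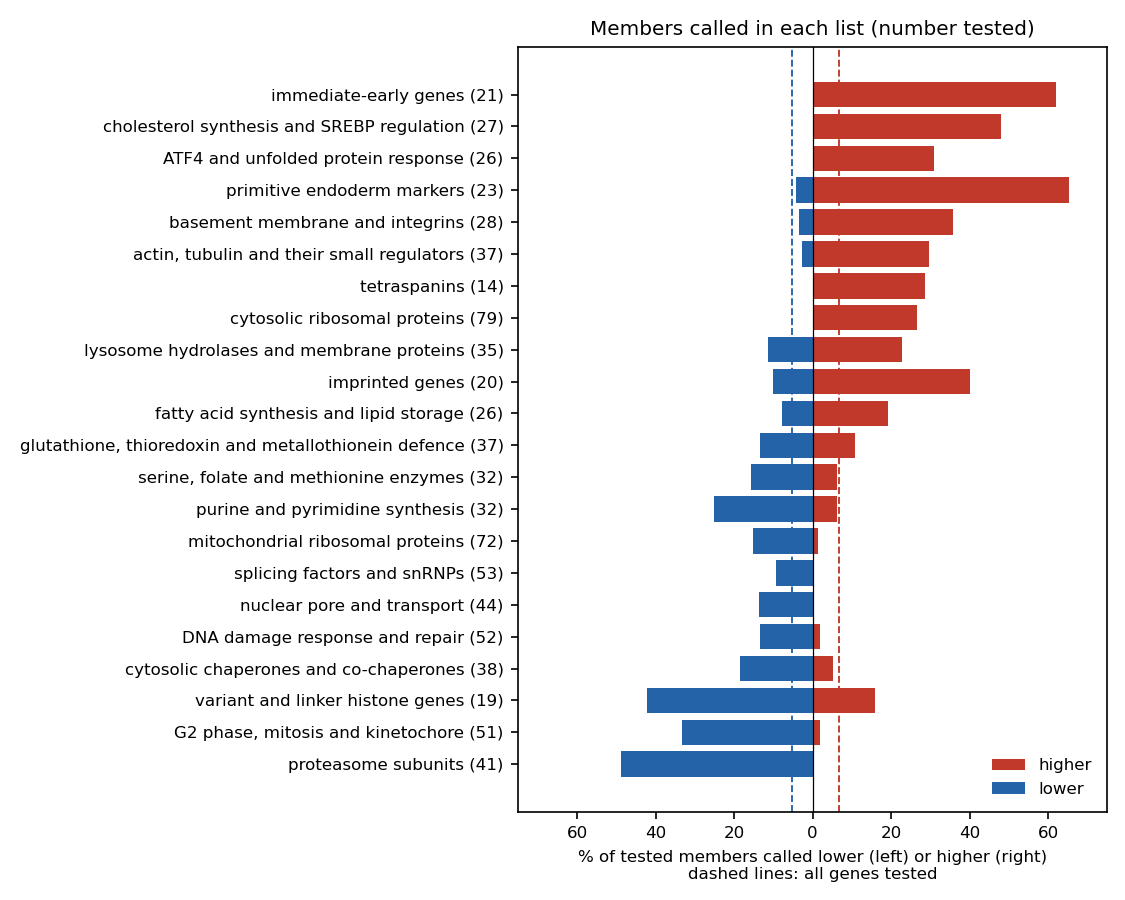
Share of tested members called lower (blue, left) or higher (red, right) in 22 gene lists, in percent, with the number tested in brackets and dashed lines at the shares of all genes (5.17% lower, 6.72% higher). Immediate-early, sterol and primitive endoderm bars extend to the right with 61.9%, 48.1% and 65.2%, and proteasome and histone bars extend to the left with 48.8% and 42.1%. Some tested members passed the filter on low values only through the group where they are higher.

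Signalling pathways had 1 to 3 calls each. In the FGF and ERK list 2 of 25 genes rose (8%) and 1 fell (4%), against 6.72% and 5.17% of all genes. Dusp5, among those that rose, passed the filter on low values through the diapaused libraries alone. Fgfr1, an FGF receptor gene, fell from 25.4, 14.6 and 16.5 to 2.28, 1.89 and 4.76 (-2.35 ± 0.33, adjusted p = 0.00421). The feedback inhibitor Spry4 rose from 3.12, 3.76 and 4 to 23.8, 16.6 and 26.9 (2.32 ± 0.24), and the ERK phosphatase gene Dusp5 from 0.418, 0.226 and 1.22 to 3.91, 6.28 and 6.71. These changes were larger than the spread of either group. Fgf4, the ligand (adjusted p = 0.499), Fgfr2 (0.209) and Dusp6 (0.764) did not pass, and the groups of each overlapped.

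Among ligands of the TGF-beta family, Bmp4 fell from 15.0, 18.7 and 15.3 to 4.85, 5.03 and 2.13 (-1.85 ± 0.30) and Gdf3 from 11.7, 8.07 and 12 to 1.99, 1.54 and 1.89 (-2.03 ± 0.22). The Nodal antagonist gene Lefty1 rose from 0.143 to 0.184 in ICM to 1.38 to 2.91 in diapaused ICM, a call lost in each fit without 1 library. Neither ligand had overlapping groups. Of 14 tested genes of the Nodal pathway 1 rose (7.14%) and 2 fell (14.3%). Of 8 of the BMP pathway 1 rose (12.5%) and 1 fell (12.5%), against 6.72% and 5.17% of all genes. The genes that rose, Lefty1 and Smad1, passed the filter on low values through the diapaused libraries alone. Foxh1, of the Nodal genes that fell, passed it through the ICM libraries alone. In the LIF list 2 of 11 genes rose (18.2%, against 6.72% of all genes), Pim3 and Lifr, and 0 did under a common total. Lifr, for the LIF receptor, went from 11.2, 8.53 and 12 to 26.9, 19.5 and 22.3 (1.05 ± 0.24, adjusted p = 0.0276), a call lost in each of the 6 fits that left out a library. Stat3 was at 79.0, 62.5 and 61.1 against 101, 107 and 107, with groups apart but no call (adjusted p = 0.105). Of 20 tested genes of insulin and PI3K signalling 3 rose (15%, against 6.72% of all genes). Klf15, among them, passed the filter on low values through the diapaused libraries alone. The 3 were Insr, for the insulin receptor, from 1.47 ± 0.149 to 4.08 ± 0.337, Igf2r (0.91 ± 0.21) and Klf15 (1.77 ± 0.41). None of these was called without ICM replicate 1, and 1 gene of the list was without ICM replicate 2 or 3 or diapaused ICM replicate 3.

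In the Wnt pathway 19 of 26 genes were tested, and 3 rose (15.8%, against 6.72% of all genes) and 0 fell. Of the 3, Fzd7 and Nkd1 passed the filter on low values through the diapaused libraries alone, so the share is not that of all 26. The call of Nkd1 was kept in 1 of the 6 fits that left out a library. Fzd7, a Wnt receptor gene, went from 0.554 ± 0.173 to 5.37 ± 0.951, and Dkk1, for a secreted inhibitor, from 3.40 ± 1.10 to 10.5 ± 0.680. In the Hippo pathway 18 of 20 genes were tested, and 3 rose (16.7%, against 6.72% of all genes): Lats1, Amotl1 and Amotl2. Amotl1 and Amotl2 passed the filter on low values through the diapaused libraries alone, so the share is not that of all 20. Of the 3, 0 or 1 was called in fits without 1 library and 1 under a common total.

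Of 25 apoptosis genes 1 was higher (4%) and 2 were lower (8%), against 6.72% and 5.17% of all genes. Bak1, a pore-forming effector, rose from 0.381, 0.0946 and 0.184 to 3.68, 4.26 and 3.48, and Casp6, for a caspase, fell from 5.46, 3.82 and 6.25 to 0.227, 2.95 and 0.838. No ICM library reached the diapaused level of Bak1. Bak1 passed the filter on low values through the diapaused libraries alone, and Casp6 through the ICM libraries alone. The call of Casp6 was kept in 1 of the 6 fits that left out a library, while that of Bak1 was kept in all 6.

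Paralogs were compared in 64 pairs, 61 of which had both members tested. Both were called in 8 pairs: 3 went opposite ways, 3 rose and 2 fell. In 23 pairs a single member was called and in 30 neither was. The pairs that moved opposite ways were Gabarapl1 and Gabarapl2 (autophagosome membrane), Uhrf1 and Uhrf2 (readers of methylated DNA) and Prkag1 and Prkag2 (AMPK subunits). Prkag1 fell from 13.3 ± 2.27 to 6.65 ± 0.237 and Prkag2 rose from 1.12 ± 0.906 to 5.42 ± 1.30. Of the 6 fits that left out a library, 1 kept the call of Prkag1 and 3 kept that of Prkag2. Uhrf1 went from 175, 170 and 216 to 27.0, 34.0 and 38.0 and Uhrf2 from 7.46, 7.26 and 6.18 to 45.4, 28.7 and 28.8, so that Uhrf1 was far above Uhrf2 in each ICM library, while in diapaused ICM replicate 1 Uhrf2 was the higher. Gabarapl2 fell from 215, 220 and 240 to 17.0, 18.1 and 19.5, while Gabarapl1 rose from 6.26, 7.56 and 6.60 to 42.6, 44.9 and 40.5. In diapaused ICM the order of this pair was thus the reverse of that in ICM in all libraries. Map1lc3b, of the related LC3 family and named after its values were seen, fell from 243, 274 and 348 to 56.0, 44.9 and 46.9 (-2.52 ± 0.24). Mtor had overlapping groups at 4.83 to 5.41 against 2.77 to 6.11 (adjusted p = 0.602).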

How the data were processed

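The values were deposited by the authors as a signal per gene, named adjusted TPM in the file headers; of the adjustment, the quantification program, annotation and strand setting, none is given in the sources used here. In the submitters' processing notes are Bowtie 0.12.5, DESeq and build mm9, with no step assigned. Libraries were grouped by the cell type in the labels. limma 3.58.1 (R 4.3.3) was fitted to log2(value + 1) of the 6 libraries, with a prior variance trending on mean level and no scaling (residual degrees of freedom 4, prior 3.98), after testing on simulated data. Its p-values are two-sided; a permutation of 3 against 3 cannot go below 0.1. Members of 60 lists (1818 symbols, 1810 in the file, 1536 tested; 16 matched by RefSeq synonym, and of 204 repeated symbols the line of highest mean was used) and 64 pairs were chosen with earlier results of these data known. Named were the 12 highest and 12 lowest folds (mean at least 10, groups apart), the 6 largest rises and falls in level, up to 4 called members per list by adjusted p, opposite pairs and a set of regulators. Promoter sequences are RefSeq's (GRCm38.p6). Some single genes are not reported here.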

Additional observations from a re-analysis of the deposited data

How the results depend on the processing

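Alternatives gave the following counts of higher and lower genes beside 1118 and 860. Leaving out the filter on low values (38924 genes tested) gave 419 and 321, and a test against a minimum fold of 1.5 gave 336 and 198. Leaving out 1 library gave 557 to 830 higher and 403 to 903 lower genes; without ICM replicate 2, 47.9% of calls were higher. With the replicate block the counts were 863 and 653. Deviations of same-numbered libraries correlated at 0.0185, 0.106 and 0.136. ICM replicate 1 correlated best with diapaused ICM replicate 2 (0.0331). ICM replicates 2 and 3 each correlated best with the diapaused library of their own number. The labels give only replicate numbers, and whether same-numbered libraries share a batch was not tested. Pseudocounts of 0.1 and 5, a filter of at least 5 in at least 3 libraries, quantile normalization, median ratio scaling, a common total and a prior variance without a trend kept both counts within 1.5 times. None of the 230 named genes turned direction with a call under any setting run. Most were named for a call in these same data, with groups apart. Leaving out a library or changing the pseudocount, filter or prior could therefore not turn their direction. The number that lost its call was largest under the minimum fold (95) and without the filter (91).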

Other observations

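Among genes called higher, the 3 highest fold changes belonged to predicted genes that the naming rule leaves out, picked here after their values were seen. Gm7437 was at 4.77, 0.140 and 0.358 in ICM and 165, 242 and 140.1 in diapaused ICM. Gm2309 and Gm3677 had nearly the same profile over the libraries as each other, at 1.62, 0.0788 and 0.124 against 76.3, 138 and 74.6 for Gm2309. Whether their reads were shared could not be checked.

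Canx, for the endoplasmic reticulum chaperone calnexin, differed between libraries and not between groups. It was at 143, 93.1 and 1338 in ICM and 114, 88.3 and 1110 in diapaused ICM, so that the library numbered 3 was far above the others in both groups. It was picked after its values were seen.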
